A study of Mus musculus with 18 samples.

Results

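The citric acid cycle, its anaplerotic enzymes and the mitochondrial shuttles were followed through 35 named genes in the astrocyte translatome of adult control mice and mice with an astrocytic deletion of GLUT1 (cKO), the glucose transporter encoded by Slc2a1. The genes were chosen by name, and all 35 had a row among the 21923 genes of the table. Of these, 34 passed the filter on low counts and were tested among 13296 genes, and Slc25a13 did not pass.

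The libraries came from translating ribosome affinity purification (TRAP), in which ribosomes carrying EGFP are immunoprecipitated (IP) together with the mRNA bound to them. Cortex was taken from male C57BL/6 mice kept in the homecage, and libraries were made by Smart-seq2. The cKO mice were labelled GLUT1 flox/flox;GLAC +/wt and the controls GLAC +/wt, so both genotypes carried the driver and only the cKO mice carried floxed GLUT1. The study's methods describe the driver as GLAST-CreERT2, a tamoxifen-inducible Cre under the Slc1a3 promoter, which is active in astrocytes. Both genotypes received the virus AAV-PHP.eB-hGFAP-DIO-EGFPL10a intravenously, which marks ribosomes only where Cre is active, and were given tamoxifen for 5 days, starting 7 days after the virus, when they were 8 to 10 weeks old. RNA was collected 60 days later. The comparison used 3 control IP libraries, numbered 11, 15 and 19 in the table, and 4 cKO IP libraries, numbered 1, 5, 9 and 17. The labels list 5 control and 4 cKO IP samples, each with an animal of its own, and the study's methods state that samples with few reads or high neuronal gene expression were left out.

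Pyruvate made in glycolysis enters the mitochondrial cycle either as acetyl-CoA, through the pyruvate dehydrogenase complex, or as oxaloacetate, through pyruvate carboxylase. The carboxylase step is called anaplerosis, and in brain it is known mainly from astrocytes, which export cycle carbon as glutamine. The malate-aspartate shuttle carries the reducing power of cytosolic NADH into mitochondria, and the citrate carrier with ATP citrate lyase returns acetyl-CoA to the cytosol.

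Levels are given in CPM, the usual RNA-seq scale on which a gene's count is set relative to the library's total, here after scaling by the trimmed mean of M-values (TMM). CPM does not correct for gene length, so each gene is compared only with itself. Total estimated counts ran from 12570309 in cKO library 17 to 40734343 in control library 11. Slc2a1, the gene of GLUT1, stood at 61.7, 59.3 and 57.6 CPM in controls 11, 15 and 19 and at 61.9, 56.4, 59.4 and 58.3 in cKO 1, 5, 9 and 17. Its log2 fold change was -0.013 with a standard error (SE) of 0.12, so the whole-gene count did not show the deletion and did not check the genotype labels. The study reported lower Slc2a1 in cKO IP RNA by qPCR and by reads from part of its exons. It also reported lower GLUT1 by western blot and immunostaining. Reads per exon were not analysed here, and why the whole-gene count did not differ was not tested. The libraries are named below as they were labelled. Each of the 8 astrocyte markers was detected, with a summed level of 12201 to 17162 CPM in controls and 12521 to 18878 CPM in cKO libraries. The sums of 8 neuron markers were 2790.2 to 3365 CPM in controls and 2338 to 3501 CPM in cKO libraries, and those of 7 oligodendrocyte markers were 749 to 834 and 459 to 872 CPM. The 6 microglia markers found summed to at most 99.5 CPM and the 6 endothelial markers to at most 31.1 CPM. No marker passed the test. Across all genes, 6 of 13296 were called by the quasi-likelihood test of edgeR, at a Benjamini-Hochberg adjusted p under 0.05.

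No gene of the cycle and its shuttles passed the test between genotypes. Of the 34 tested, 0 were called, beside 0.0451% of all genes, and the edgeR adjusted p was 0.9996 for each of them. The exact test of edgeR and DESeq2 also called 0 of the 34. At an unadjusted p under 0.05, 1 of the 34 stood out, beside 2.58% of all genes, namely the ATP citrate lyase gene Acly, lower in cKO libraries. That made 1 lower and 0 higher, beside 1.14% and 1.44% of all genes. The groups did not overlap for 1 gene, Idh3a, beside 5.11% of all genes, and it was lower in cKO libraries, as were 2.76% of all genes without overlap. Negative log2 fold changes were found for 22 of the 34 genes (64.7%), beside 47.7% of all genes, and that count was 15 without control 15, 16 without cKO 17, 25 without cKO 1 and 27 without control 19. The median log2 fold change was -0.047, beside 0.012 over all genes tested, and it ran from -0.13 without cKO 1 and -0.11 without control 19 to 0.0080 without control 15 and 0.011 without cKO 17. Single genes ran from -0.39 for Acly to 0.73 for Me3. These levels are from bulk libraries, in which fewer cells of a type and less RNA per cell cannot be told apart.

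The intervals limit how large an unseen difference in the whole-gene counts of these IP libraries could be. Neuron markers were also detected in these libraries, so the intervals are not for astrocytes alone. For Slc2a1 the 95% interval of the log2 fold change was -0.28 to 0.25, which is within 1.5-fold. The study reported lower Slc2a1 in cKO IP RNA by other measures, as given above. A narrow interval on a whole-gene count therefore does not exclude a difference seen by other measures. The 95% interval of the fold change lay within 1.5-fold in either direction for 26 of the 34 genes (76.5%), beside 36.1% of all genes tested. It lay within 2-fold for 33 of the 34, beside 64.8% of all genes, and the exception was Me3. The genes whose interval reached beyond 1.5-fold were Pdk4, Pdp1, Dlst, Me1, Me2, Me3, Acly and Slc25a10. The median SE was 0.17 for the 34 genes and 0.25 for all genes. Their median biological coefficient of variation was 0.170 against 0.245 for all genes. These comparisons with all genes were not matched for level. In mean CPM, Me3 lay above 26.4% of tested genes, Me2 above 50.1%, and every other tested gene of the set higher still.

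**Figure D1:**
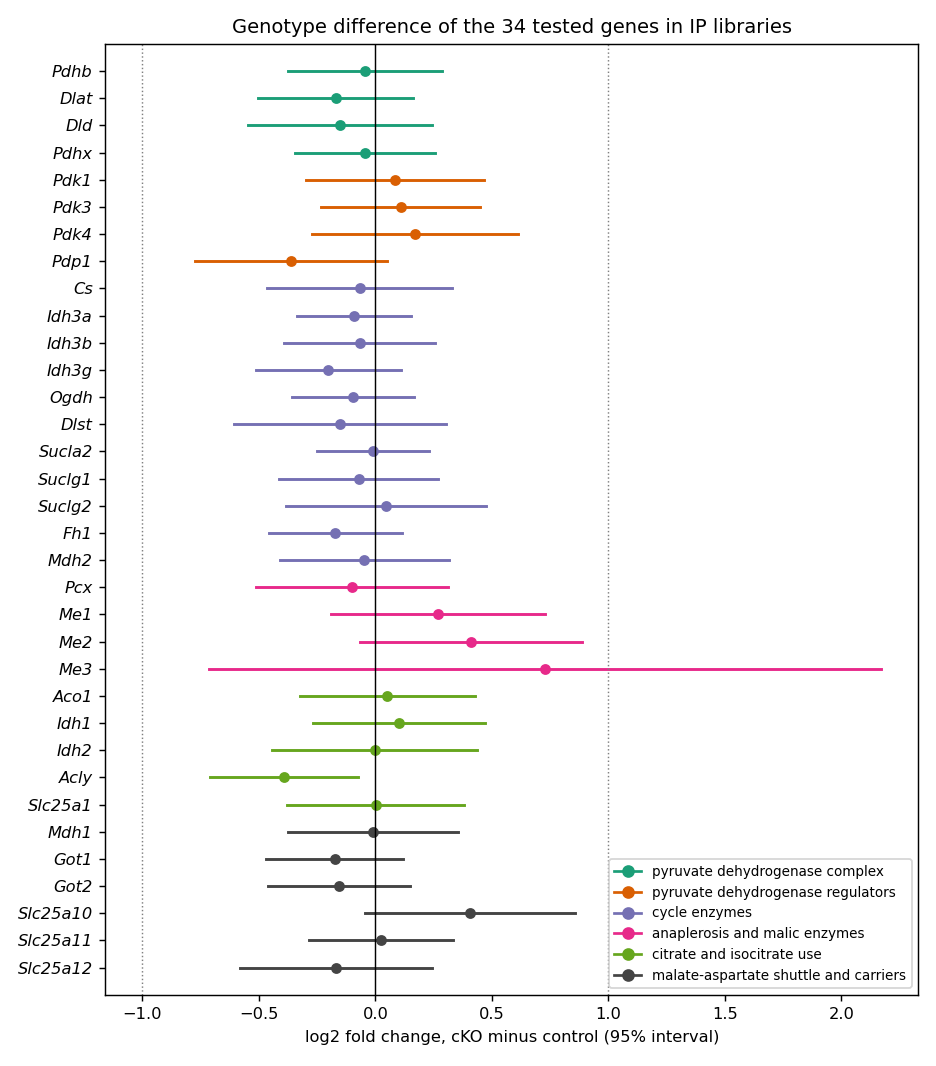
Each point is the log2 fold change of a gene, cKO minus control, from edgeR over 3 control and 4 cKO IP libraries, with a bar for its 95% interval and a colour for its role; dotted lines mark a 2-fold difference. Acly is the only gene whose bar does not cross 0, and Me3 is the only gene whose bar crosses the 2-fold line.

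Pyruvate enters through the dehydrogenase complex, of which 4 genes of the set were tested. All 4 had negative log2 fold changes with a median of -0.099, and none passed the test. Pdha1, a gene of the same complex outside the set, had -0.020 (SE 0.14) and did not pass either. Dlat, the acetyltransferase core, had 152 ± 23.3 CPM (SD, n = 3) in controls and 135 ± 18.8 CPM (n = 4) in cKO libraries, a log2 fold change of -0.17 (SE 0.15). Dld, the dihydrolipoamide dehydrogenase that the complex shares with oxoglutarate dehydrogenase, had -0.15 (SE 0.18). Pdhb, the beta chain of the decarboxylase, had -0.045 (SE 0.15), and Pdhx, which binds the dihydrolipoamide dehydrogenase to the core, had -0.045 (SE 0.14). Library cKO 17 was the lowest of the 7 for Pdhb at 202 CPM, for Dld at 86.2 CPM and for Pdhx at 76.9 CPM, and cKO 5 was the lowest for Dlat at 119 CPM. Without cKO 17 the log2 fold changes of Pdhb and Pdhx were 0.066 and 0.035, and those of Dlat and Dld were -0.13 and -0.023. Dlat and Dld were negative under every alternative.

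The kinases that phosphorylate and switch off the complex and the phosphatase that switches it on again had differences of opposite sign. Pdk1, Pdk3 and Pdk4 had log2 fold changes of 0.084 (SE 0.17), 0.11 (SE 0.16) and 0.17 (SE 0.20), and none of these passed the test. Pdk3, among the 5 lowest of the set in CPM, stood at 22.0, 24.0 and 23.9 CPM in controls 11, 15 and 19 and at 27.4, 24.2, 23.7 and 25.2 CPM in cKO 1, 5, 9 and 17, so that cKO 9 lay between the controls. Pdk4, which rises with fasting in many tissues, spread over 34.8 to 48.7 CPM in controls and 34.3 to 59.2 CPM in cKO libraries. Pdp1, the catalytic subunit of the phosphatase, stood at 58.9, 63.7 and 76.5 CPM in controls 11, 15 and 19 and at 61.6, 50.1, 58.2 and 36.5 CPM in cKO 1, 5, 9 and 17. Control 19 was the highest and cKO 17 the lowest, and cKO 1 lay above control 11. Its log2 fold change was -0.36 (SE 0.19, 95% interval -0.77 to 0.05), with an unadjusted p of 0.0793 in edgeR.

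Among the 11 enzymes of the cycle itself, 10 had negative log2 fold changes and only Suclg2 a positive one, with a median of -0.071. None passed the test, and the differences lay between -0.20 and 0.047. Citrate synthase, Cs, which joins acetyl-CoA to oxaloacetate, stood at 717, 896 and 572 CPM in controls 11, 15 and 19 and at 839.8, 623, 723 and 597 CPM in cKO 1, 5, 9 and 17. The range of the controls held all cKO libraries, and the log2 fold change was -0.066 (SE 0.18).

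The NAD-dependent isocitrate dehydrogenase is built of the catalytic alpha and the beta and gamma subunits. Its alpha gene Idh3a was the one whose groups did not overlap: it stood at 151, 145 and 145 CPM in controls 11, 15 and 19 and at 142, 141, 125 and 143 CPM in cKO 1, 5, 9 and 17. Libraries cKO 1, 5 and 17 lay just under the lowest control and cKO 9 further down. The difference was small, with a log2 fold change of -0.093 (SE 0.11) and an unadjusted p of 0.422 in edgeR. Idh3g had the largest difference of the cycle enzymes at -0.20 (SE 0.14), and Idh3b had -0.068 (SE 0.15). Idh3a and Sucla2 were the steadiest genes of the set over the 7 libraries, with 0.5% and 0.2% of all tested genes varying less.

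The oxoglutarate dehydrogenase genes Ogdh and Dlst had log2 fold changes of -0.096 (SE 0.12) and -0.15 (SE 0.21). Dlst, the succinyltransferase core, spread widely in both groups, from 69.8 to 103 CPM in controls and from 67.0 to 112 CPM in cKO libraries. Succinyl-CoA ligase pairs the alpha subunit Suclg1 with either Sucla2, which makes ATP, or Suclg2, which makes GTP. Suclg1 stood at 469, 548 and 466 CPM in controls 11, 15 and 19 and at 559, 451, 501 and 372 CPM in cKO 1, 5, 9 and 17, with a log2 fold change of -0.071 (SE 0.15). The cKO libraries held both the highest and the lowest value. Sucla2 had 190.5 ± 9.18 CPM (SD, n = 3) and 189 ± 8.22 CPM (n = 4), a log2 fold change of -0.0091 (SE 0.11), and Suclg2 had 0.047 (SE 0.19).

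Fumarase, Fh1, which hydrates fumarate to malate, had 161 ± 15.7 CPM (SD, n = 3) in controls and 143 ± 15.7 CPM (n = 4) in cKO libraries. Its log2 fold change was -0.17 (SE 0.13), and cKO 1, at 167 CPM, lay inside the control range. Mdh2, the mitochondrial malate dehydrogenase, stood at 640.2, 625 and 513 CPM in controls 11, 15 and 19 and at 734, 539.9, 489 and 529.7 CPM in cKO 1, 5, 9 and 17. The groups overlapped, and the log2 fold change was -0.048 (SE 0.16).

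The malic enzymes gave the positive end of the set, and the 4 genes of anaplerosis and malic enzymes had a median of 0.34. None of these 4 passed the test. Pcx, pyruvate carboxylase, did not share that sign. It had 99.1 ± 29.8 CPM (SD, n = 3) in controls and 92.4 ± 9.43 CPM (n = 4) in cKO libraries, with a log2 fold change of -0.10 (SE 0.19, 95% interval -0.51 to 0.31). Control 15 stood apart at 132 CPM against 75.1 to 99.8 CPM in the other libraries, and the log2 fold change was 0.16 without it and -0.27 without control 19.

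The malic enzymes turn malate into pyruvate, in the cytosol through Me1 and in mitochondria through Me2 and Me3. Me2 stood at 14.03, 20.6 and 14.9 CPM in controls 11, 15 and 19 and at 18.3, 22.7, 20.02 and 26.7 CPM in cKO 1, 5, 9 and 17. Control 15 lay above cKO 1 and cKO 9, and the other controls lay below all cKO libraries. The log2 fold change was 0.41 (SE 0.22, 95% interval -0.07 to 0.88), with an unadjusted p of 0.0842 in edgeR. Me3, the tested gene of the set with the fewest counts, stood at 3.28, 2.87 and 7.16 CPM in controls 11, 15 and 19 and at 7.96, 9.52, 1.04 and 10.8 CPM in cKO 1, 5, 9 and 17. Libraries cKO 1, 5 and 17 were above every control and cKO 9 was below every control, and the log2 fold change of 0.73 had an SE of 0.65. Me1 had 91.4 ± 8.91 CPM (SD, n = 3) and 110.1 ± 29.2 CPM (n = 4), and cKO 5, at 67.5 CPM, was the lowest of the 7 while the other cKO libraries, at 118 to 134 CPM, lay above all controls. The log2 fold change of Me1 was 0.27 (SE 0.21). All 3 malic enzymes moved with the libraries used, and none turned sign. As each library was left out, the log2 fold change of Me1 ran from 0.16 without cKO 1 to 0.44 without cKO 5, and that of Me2 from 0.30 without control 11 to 0.60 without control 15. That of Me3 ran from 0.49 without cKO 17 to 1.25 without control 19.

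**Figure D2:**
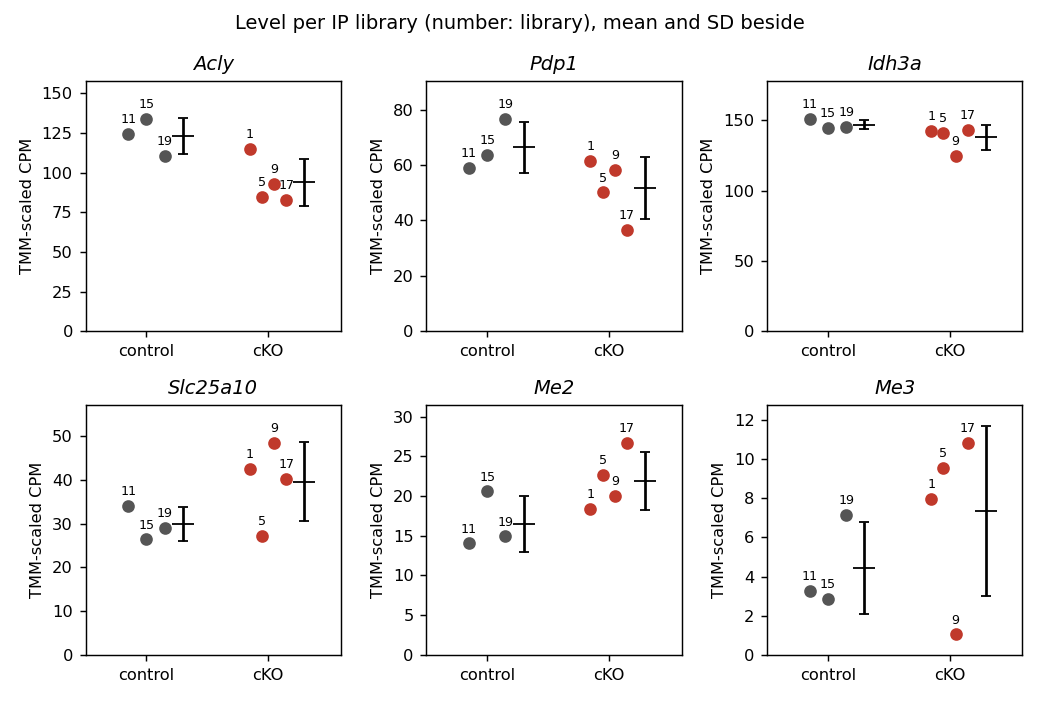
TMM-scaled CPM of 6 genes in each IP library (grey control, red cKO, numbers naming the libraries), with the mean and SD of each group beside the points; each panel has its own axis from 0. Idh3a is the gene whose groups do not overlap, by a small margin, and in Acly cKO 1 lies above control 19.

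Citrate that leaves the mitochondria passes the carrier Slc25a1 and is split by Acly into oxaloacetate and the acetyl-CoA used for lipid synthesis and acetylation. Acly stood at 125, 134 and 111 CPM in controls 11, 15 and 19 and at 115, 84.7, 92.7 and 82.6 CPM in cKO 1, 5, 9 and 17. Libraries cKO 5, 9 and 17 lay below every control, and cKO 1 lay above control 19. The log2 fold change was -0.39 (SE 0.14, 95% interval -0.71 to -0.07). The unadjusted p was 0.0207 and the edgeR adjusted p over all genes 0.9996, so the difference did not pass the test. Without control 11 or control 15 the unadjusted p was 0.0598 or 0.0843 in edgeR, and the lowest adjusted p under any alternative was 0.946.

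Slc25a1 stood at 147, 139.8 and 114 CPM in controls 11, 15 and 19 and at 167, 101, 139 and 128 CPM in cKO 1, 5, 9 and 17. The groups overlapped, and the log2 fold change was 0.0018 (SE 0.17, 95% interval -0.38 to 0.38). The cytosolic NADP-dependent isocitrate dehydrogenase Idh1 and its mitochondrial counterpart Idh2 both make NADPH. Idh2 stood at 585, 546 and 399.8 CPM in controls 11, 15 and 19 and at 669, 397, 533 and 438 CPM in cKO 1, 5, 9 and 17, with a log2 fold change of -0.0027 (SE 0.20). Control 19 and cKO 5 were the lowest and cKO 1 the highest. Idh1 had 0.10 (SE 0.17), and the cytosolic aconitase Aco1, which also acts as an iron-responsive RNA-binding protein, had 0.051 (SE 0.17).

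The malate-aspartate shuttle moves malate and aspartate across the inner membrane with a dehydrogenase and an aminotransferase on each side. Its tested genes Mdh1, Mdh2, Got1, Got2, Slc25a11 and Slc25a12 had log2 fold changes between -0.17 and 0.023, and none passed the test. Mdh2 also belongs to the cycle and is described there. Mdh1, the cytosolic malate dehydrogenase, stood at 1479, 1413 and 1248 CPM in controls 11, 15 and 19 and at 1751, 1344, 1174 and 1214 CPM in cKO 1, 5, 9 and 17. The cKO libraries held both extremes, and the log2 fold change was -0.0097 (SE 0.16). The aminotransferase genes Got1, cytosolic, and Got2, mitochondrial, had log2 fold changes of -0.17 (SE 0.13) and -0.16 (SE 0.14).

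Of the carriers, Slc25a11 exchanges malate for oxoglutarate and had a log2 fold change of 0.023 (SE 0.14). Slc25a10, a dicarboxylate carrier outside the shuttle that exchanges malate or succinate for phosphate, stood at 34.1, 26.4 and 29.1 CPM in controls 11, 15 and 19 and at 42.5, 27.2, 48.5 and 40.2 CPM in cKO 1, 5, 9 and 17. Libraries cKO 1, 9 and 17 were above every control, and cKO 5 lay between the controls. The log2 fold change was 0.41 (SE 0.20, 95% interval -0.05 to 0.86), with an unadjusted p of 0.0735 in edgeR. As each library was left out, it ran from 0.29 without cKO 9 to 0.55 without cKO 5.

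The aspartate-glutamate carrier has the isoforms Slc25a12, known as aralar and as the main form of adult brain, and Slc25a13, known as citrin and as the main form of liver. Slc25a12 stood at 31.3, 33.9 and 34.7 CPM in controls 11, 15 and 19 and at 28.6, 22.8, 28.9 and 38.3 CPM in cKO 1, 5, 9 and 17. Libraries cKO 1, 5 and 9 were below every control and cKO 17 above them, with a log2 fold change of -0.17 (SE 0.19). Slc25a13 had 12, 0 and 7 counts in controls 11, 15 and 19 and 7, 42, 0 and 0 counts in cKO 1, 5, 9 and 17. It was at 0 in libraries of both groups and was not tested. At 3 counts, the limit that a count of 0 allows, the floor was 0.109 CPM in control 15, 0.149 CPM in cKO 9 and 0.222 CPM in cKO 17, for counting error only.

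Genes that share a step or a substrate were also set against each other within each library, a ratio that no scaling between libraries can move. None of the 13 ratios passed an exact two-sided permutation test after adjustment over the 13, and with 3 against 4 libraries the smallest p this test can give is 0.0571. Acly over Slc25a1 had that smallest p. Its count ratio was 0.849, 0.956 and 0.974 in controls 11, 15 and 19 and 0.690, 0.838, 0.669 and 0.646 in cKO 1, 5, 9 and 17, so the groups did not overlap. The cKO ratio was 0.764 of the control ratio, with an exact permutation p of 0.0571 and an adjusted p of 0.743. Slc25a11 over Slc25a10 followed at 0.773 of the control ratio (exact permutation p = 0.171), and Idh1 over Idh2 at 1.09 (exact permutation p = 0.229).

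The other ratios had exact permutation p values of 0.514 and above. Pcx over Pdhb, which sets the carboxylase against the dehydrogenase entry of pyruvate, was 0.311, 0.472 and 0.295 in controls 11, 15 and 19 and 0.327, 0.344, 0.290 and 0.459 in cKO 1, 5, 9 and 17. The cKO ratio was 0.996 of the control ratio (exact permutation p = 0.914), and control 15 and cKO 17 were high. The steadiest ratio was Mdh1 over Mdh2, the cytosolic over the mitochondrial malate dehydrogenase, which lay between 2.26 and 2.49 in all 7 libraries. The ratios with Slc25a13 or Me3 were the widest, and both genes had few counts. Me2 over Me3 was 19.0 in cKO 9 and 2.07 to 7.13 in the other libraries.

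**Figure D3:**
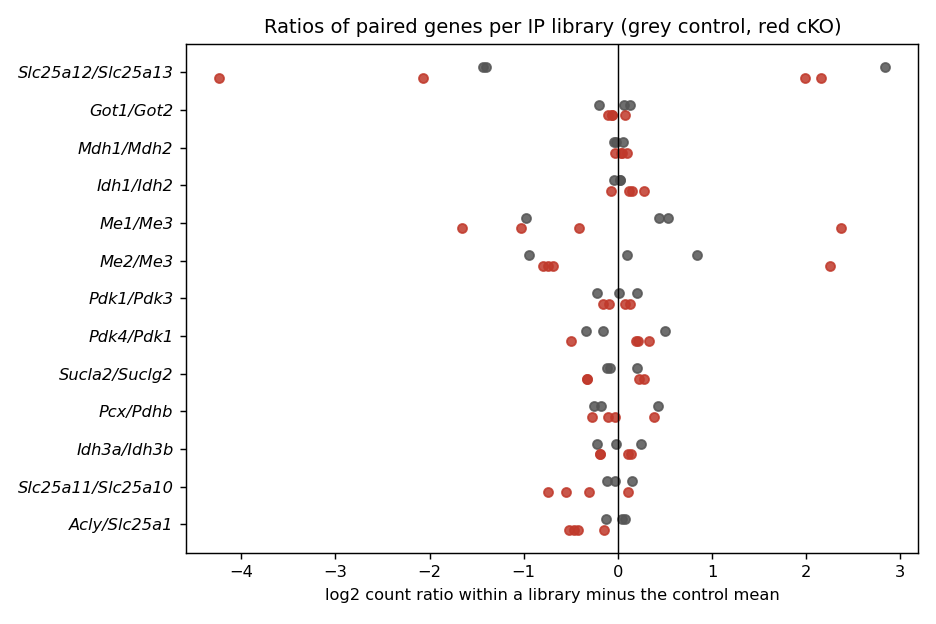
Each point is the log2 ratio of the counts of a pair of genes within 1 IP library, minus the mean of the 3 control libraries (grey control, red cKO). Only the Acly/Slc25a1 points separate by group, with cKO ratios of 0.646 to 0.838 against 0.849 to 0.974 in controls; the Slc25a12/Slc25a13 and Me3 pairs spread most.

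Acly and Slc25a1, the members of the pair whose ratio did not overlap, are shown by the 100 bases before their RefSeq gene start. The GC box, a short motif common in promoters that lack a TATA box, occurred 3 times in each. The sequences are from RefSeq on GRCm38.p6 and both lie on the minus strand, Acly at chr11:100528001-100528100 and Slc25a1 at chr16:17928220-17928319, and they run from 5′ to 3′ with GC boxes on either strand in capitals.
Acly: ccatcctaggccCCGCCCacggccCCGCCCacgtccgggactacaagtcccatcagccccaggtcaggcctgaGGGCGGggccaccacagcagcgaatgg
Slc25a1: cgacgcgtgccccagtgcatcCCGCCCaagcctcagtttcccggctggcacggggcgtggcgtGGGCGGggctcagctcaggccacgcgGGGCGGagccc
RefSeq gave 41 promoters for 32 of the 35 genes, each of 250 bases before to 50 after a start. The GC box, GGGCGG on either strand, was in 63.4% of them, in 61.9% of the promoters of all tested genes and in 35.7% of all mouse promoters listed. The letters TATAAA were in 2.44% of the 41, beside 7.08% for tested genes. CCGGAAG, the core bound by ETS factors such as GABP, was in 7.32% of the 41, beside 15.8%, and GCGCATGC, the core of the NRF1 motif, in 4.88%, beside 4.93%. These matches describe letters and not sites in use.

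Single libraries stood further apart in these genes than the group medians did. Library cKO 1 was the highest of the 7 libraries for 15 of the 34 genes (44.1%), beside 11.5% of all genes tested, and control 15 for 12 (35.3%), beside 12.4%. Library cKO 17, the library of lowest depth, was the lowest for 14 (41.2%), beside 27.7% of all genes. In cKO 1 the median of the 34 genes was 0.18 relative to the control mean on the log2 CPM scale, and in cKO 17 it was -0.24. In cKO 5 and cKO 9 it was -0.13 and -0.046, and in controls 11, 15 and 19 it was 0.038, 0.100 and -0.14.

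For part of the genes, the order of the libraries moved with the astrocyte marker sum. That sum was lowest in control 19 at 12201 CPM, cKO 5 at 12521 CPM and cKO 17 at 13485 CPM, and highest in control 15 at 17162 CPM and cKO 1 at 18878 CPM. Slc1a2 was the largest part of each astrocyte sum, at 5675 to 9368 CPM. Slc1a2, Aqp4, Slc1a3 and Gjb6 were lowest in libraries 19, 5 and 17, and Gja1, Aldh1l1, Gfap and Atp1b2 did not share that order. The same libraries 19, 5 and 17 had the highest neuron marker sums, at 3365, 3501 and 3389 CPM, beside 2338 to 2865 CPM in the other 4. Snap25 made up most of each sum, at 1572 to 2255 CPM. Snap25, Syt1, Rbfox3, Stmn2 and Gad2 were highest in these 3 libraries, and Nefl and Slc17a7 did not share that order. Gad1 was lowest in them, at 29.0, 23.7 and 34.3 CPM, beside 39.6 to 61.4 CPM in the other 4. For 11 of the 34 genes (32.4%) libraries 19, 5 and 17 were the 3 lowest, beside 10.2% of all genes tested. These were Dlat, Pdhx, Cs, Idh2, Idh3b, Dlst, Suclg1, Suclg2, Got2, Slc25a1 and Slc25a11. They were the 3 highest libraries for 0 of the 34 genes, beside 11.5% of all genes. The part of cell makeup in the genotype values was not tested. With the neuron marker level as a covariate, chosen after the data were seen, edgeR called 0 of the 34 genes, beside 0.0677% of all genes. At an unadjusted p under 0.05 that fit of edgeR gave Acly and Slc25a10, 2 of the 34 genes, beside 4.57% of all genes.

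**Figure D4:**
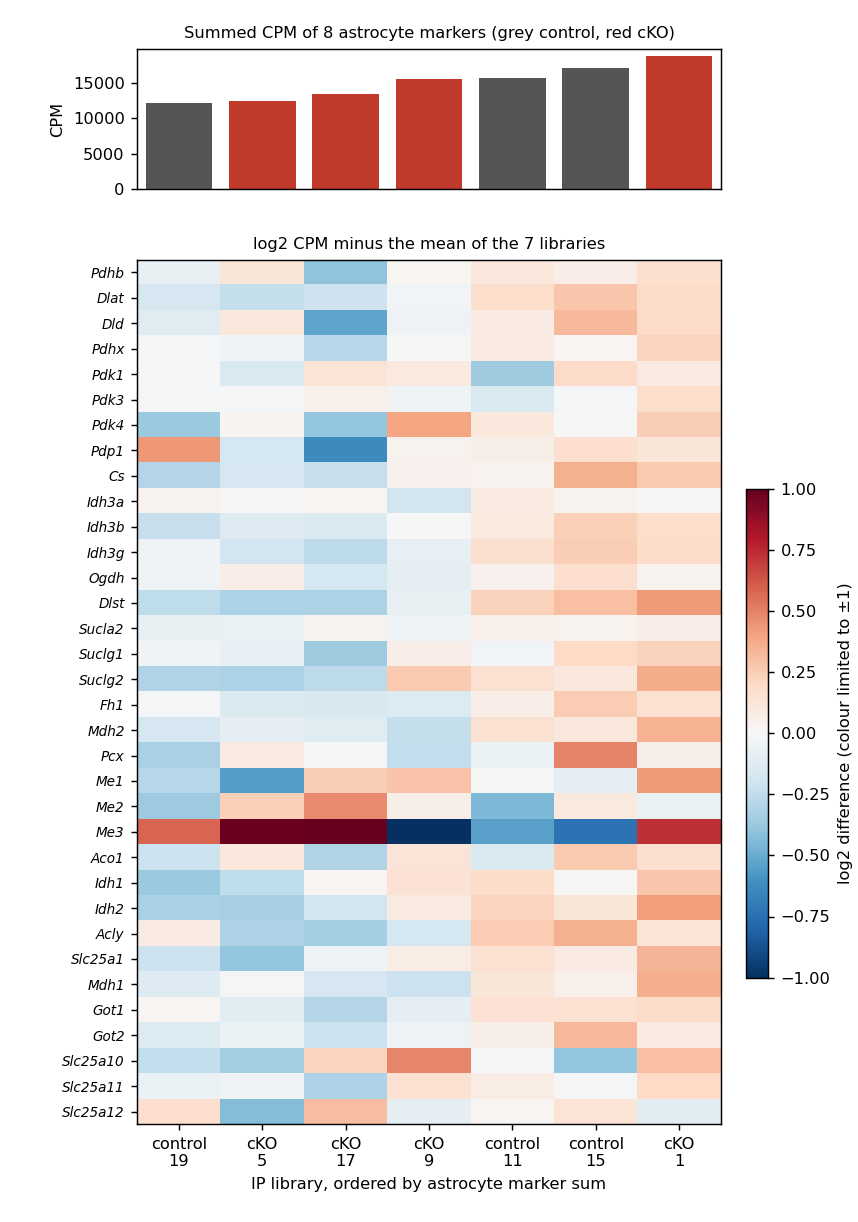
The 7 IP libraries are ordered by the summed CPM of 8 astrocyte markers (bars, from 0), and the colours below give each gene's log2 CPM minus its mean over the 7 libraries, limited to 1 in either direction. Blue gathers on the left, where the marker sum is 12201 to 13485 CPM, and red on the right. Control and cKO libraries are mixed along the order. Several genes do not follow it, among them Me3, Me2, Pdp1, Slc25a12, Slc25a10, Pdk1 and Idh3a.

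Other genes of the same pathways, from a list that holds no gene of the set, gave no call either. Of 36 listed, 35 were tested and Pck1, the cytosolic phosphoenolpyruvate carboxykinase, was not. None passed the test (edgeR adjusted p = 0.9996 for each), 11 had positive and 24 negative log2 fold changes, and the median was -0.040. At an unadjusted p under 0.05, 2 of the 35 stood out, beside 2.58% of all genes. Ogdhl, a relative of the Ogdh subunit that is known from brain, stood at 51.7, 73.3 and 78.7 CPM in controls 11, 15 and 19 and at 89.5, 106, 79.4 and 94.9 CPM in cKO 1, 5, 9 and 17. All cKO libraries were above all controls, cKO 9 by less than 1 CPM, and the log2 fold change was 0.45 (SE 0.17, unadjusted p = 0.0230 in edgeR). Ogdh itself, described above, had the opposite sign. The groups did not overlap for Sdhd either, a membrane anchor of succinate dehydrogenase, so that this held for 2 of the 35 genes (5.71%), beside 5.11% of all genes. Both were higher in cKO libraries, and 2.35% of all genes were higher without overlap.

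Gpd1, the cytosolic enzyme of the glycerol phosphate shuttle, stood at 204, 159.7 and 177 CPM in controls 11, 15 and 19 and at 172, 134, 137 and 122 CPM in cKO 1, 5, 9 and 17. Its log2 fold change was -0.35 (SE 0.15, unadjusted p = 0.0351 in edgeR), and cKO 1 lay between the controls. Nnt, the mitochondrial transhydrogenase, which C57BL/6J mice are known to lack in working form, stood at 4.47, 7.85 and 19.9 CPM in controls 11, 15 and 19 and at 11.5, 6.08, 6.96 and 7.04 CPM in cKO 1, 5, 9 and 17. Control 19 was the highest, and the log2 fold change of -0.44 (SE 0.46) was 0.35 without that library. The libraries of lowest astrocyte marker sum were the 3 lowest for 16 of the 35 genes (45.7%).

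No gene of the set lay near Slc2a1. That gene is on chromosome 4 of GRCm38, as are Aco1 and Pdp1, at distances of 78.9 and 107 Mb. Idh2, on chromosome 7, lay 224 kb from Hddc3, which was among the 6 genes called in the comparison.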

How the data were processed

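The submitters' processing notes name cutadapt 1.15 for trimming and kallisto 0.44.0, which assigned reads to GENCODE vM17 transcripts on GRCm38. The authors deposited estimated counts summed per gene symbol, with no normalization for depth or length. Kallisto splits reads between transcripts that share sequence, and 3 of the 34 tested genes (Pcx, Pdp1 and Me2, 8.82%) had exactly whole deposited counts in all libraries, beside 17.5% of all tested genes.

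Columns were assigned to groups by the sample numbers in the study's source data. The other 11 columns were not used, so the IP to input ratio is not analysed here. No transcript lengths were given, so levels of different genes were not compared.

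The deposited counts were rounded. Genes were filtered by filterByExpr, scaled by TMM and tested in R 4.3.3 with edgeR 4.0.16 (glmQLFit and glmQLFTest), genotype being the only term, with Benjamini-Hochberg adjustment over all genes at 0.05. Ratios used counts plus 0.5 and exact two-sided permutation tests in scipy 1.17.1. The alternatives tried were scaling by RLE, by upper quartile or by library size alone, no filter, 1 CPM in 3 libraries, edgeR's exact test, DESeq2 1.42.0, 1 surrogate variable from sva 3.50.0, 2 counts added to ratios and each library left out. Each gene of the set was named. Values for every library were given for those with an unadjusted p under 0.05, without overlap, with the 5 largest differences, with the 5 highest or lowest CPM, or in a ratio at the lowest possible p. The code of the main fit was run on simulated counts as a check of the code only. How often differences of the size seen in the set would be called was not tested. The genes and lists were chosen with earlier results of these data known. All library pairs of a group differed by more than counting noise (chi-square per degree of freedom of at least 30.9).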

Additional observations from a re-analysis of the deposited data

Results flagged for a closer look

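In 39 sets of 4 cKO libraries, 3 had a library far from the others by Dixon's criterion, where chance gives about 1 in 20, or 1.95 of 39. Aco1, the cytosolic aconitase, was at 40.9 CPM in cKO 17 and at 54.2 to 56.5 CPM in the other cKO libraries. Idh3a was at 124.7 CPM in cKO 9 and at 140.7 to 143 CPM in the others. Fh1, fumarase, was at 166.7 CPM in cKO 1 and at 134 to 136 CPM in the others.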

How the results depend on the processing

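No paired analysis was possible because the columns carry none of the replicate numbers of the labels. None of the 34 genes of the set was called under any alternative, and 18 of the 34 kept their direction in all of them, Acly among these. Over all genes, 18 were called by edgeR's exact test and 21 by DESeq2, beside 6. Small differences turned sign as follows, and the cause was not tested. Slc25a1 was at -0.011 with upper-quartile scaling, -0.0026 with no filter and -0.0035 with the neuron marker covariate, which was chosen after the data were seen. Sucla2 was at 0.0014 with library size only. With 1 surrogate variable, the log2 fold changes of Pdhb, Pdhx, Cs, Idh2, Suclg1 and Mdh1 were 0.069, 0.038, 0.0055, 0.070, 0.030 and 0.048, the median of the set was 0.016, and 16 of the 34 were negative. The Me2/Me3 ratio was at -0.0069 with 2 counts added.

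With each library left out in turn, log2 fold changes that turned sign ran from -0.055 to 0.21 for Pdk1, -0.041 to 0.21 for Aco1, -0.16 to 0.11 for Idh2, -0.051 to 0.013 for Sucla2, -0.15 to 0.051 for Mdh1, -0.19 to 0.015 for Mdh2, -0.27 to 0.16 for Pcx, -0.21 to 0.11 for Cs, -0.19 to 0.036 for Idh3b. They ran from -0.16 to 0.027 for Suclg1, -0.041 to 0.23 for Idh1, -0.084 to 0.15 for Suclg2, -0.12 to 0.11 for Slc25a1, -0.043 to 0.12 for Slc25a11, -0.81 to 0.35 for Nnt, -0.11 to 0.066 for Pdhb and -0.13 to 0.035 for Pdhx. The differences in log2 ratio ran from -1.03 to 0.31 for Me1/Me3, -1.44 to 0.88 for Slc25a12/Slc25a13, -0.12 to 0.093 for Pdk1/Pdk3, -0.11 to 0.31 for Pdk4/Pdk1, -0.14 to 0.21 for Pcx/Pdhb, -0.14 to 0.03 for Got1/Got2, -0.74 to 0.43 for Me2/Me3, -0.14 to 0.065 for Sucla2/Suclg2 and -0.14 to 0.088 for Idh3a/Idh3b.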
